A study of Mus musculus with 15 samples.

Results

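The genes described here encode parts of the transport machinery of the primary cilium and of the centrosome, the organelle that the cilium grows from. They are the genes in the count tables whose symbol is Ift, Bbs or Cep followed by a number, together with Tmem67, Tmem231, Tctn1, Tctn3, Mks1, Rpgrip1l, Arl13b, Kif3a, Ofd1 and Ahi1. This rule found 69 of the 25814 genes listed. It used no measured value, but it was chosen with earlier results of these data known. Of these 69 genes, 66 had enough reads to be tested, among 11804 genes tested in all. The tables come from BMDMs, macrophages grown for 6 days from bone marrow of adult wild-type C57BL/6 mice in the presence of 10% fetal bovine serum and 20% L929-conditioned medium, which supplies the macrophage growth factor M-CSF. There were 5 control libraries, 5 libraries of cells given poly(I:C) at 10 µg/ml and 5 of cells given CL075 at 4 µM, both ligands for 6 h. Poly(I:C) is a synthetic double-stranded RNA that TLR3 recognizes, and CL075 is a small molecule that activates TLR7. No group carried a transgene or a deletion. The series describes sequencing in triplicate, whereas 5 libraries are labelled for each group. Male and female mice were used at random. The library names carry WT and a number that 1 library of each group shares, without saying whether it marks an animal, a culture or a day, so the p-values measure the spread between libraries, which may be technical.

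A primary cilium is a microtubule-based projection of the cell surface that grows from the older of the centrioles. Its proteins are carried by intraflagellar transport (IFT) trains, in which the IFT-B complex and kinesin-II move cargo outwards and the IFT-A complex and dynein-2 return it. The BBSome is a coat-like complex that rides on these trains and takes membrane proteins out of the cilium, and chaperonin-like proteins, among them Bbs10 and Bbs12, help to assemble it. The transition zone at the base acts as the gate of the cilium. The distal appendages of the older centriole dock it to the membrane before the cilium grows. Cells of the blood lineage are commonly described as lacking a primary cilium, but every dividing cell has centrosomes, and IFT proteins also have reported roles in vesicle traffic, for example at the immune synapse of T cells.

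RFX factors, which drive ciliary genes in many animals, bind a site called the X-box, and the promoters of the genes were searched for it in the RefSeq promoter table (build GRCm38.p6), which gives 250 bases before and 50 after each start. Of the 69 genes, 59 matched this table by symbol. The X-box was taken as GTTNCC followed after 0 to 3 bases by GGNAAC, which reads the same on both strands. It was found in 8 of the 59 genes (13.6%), against 0.936% of the 27025 genes in the table and 1.03% of the tested genes in it. These 8 promoters are shown because they carry the clearest sequence feature the genes share, with the X-box in capitals and the flanking bases in lower case, each read 5′ to 3′ on the strand of its gene.
Ahi1: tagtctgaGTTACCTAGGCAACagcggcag
Mks1: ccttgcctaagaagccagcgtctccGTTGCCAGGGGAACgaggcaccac
Tctn1: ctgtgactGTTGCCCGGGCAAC
Tctn3: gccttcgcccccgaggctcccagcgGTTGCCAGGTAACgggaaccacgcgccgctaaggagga
Ift57: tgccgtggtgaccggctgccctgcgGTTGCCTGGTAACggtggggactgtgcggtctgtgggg
Bbs7: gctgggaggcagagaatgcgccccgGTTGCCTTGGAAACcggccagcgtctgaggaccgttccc
Cep19: agccttctGTTGCCTTGGGAACgatcctcg
Cep41: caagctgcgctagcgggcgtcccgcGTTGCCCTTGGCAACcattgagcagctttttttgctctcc

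In GRCm38.p6 these windows lie at chr10:20952560-20952589 (plus strand), chr11:87853166-87853214 (plus strand), chr5:122264411-122264432 (minus strand), chr19:40612334-40612396 (minus strand), chr16:49699209-49699271 (plus strand), chr3:36613472-36613535 (minus strand), chr16:32099803-32099832 (plus strand) and chr6:30693841-30693905 (minus strand). The X-box begins at base 22 after the start of Ahi1, 23 after that of Cep19 and 37 after that of Tctn1, within the first transcribed bases, and before the start in the other 5 genes. By role it was held by 4 of 7 transition zone genes, 1 of 11 IFT genes, 1 of 8 Bbs genes and 2 of 31 Cep genes. Its left arm GTTGCC alone, searched on both strands and also counted where it lies inside an X-box, was held by 23 of the 59 genes (39%) against 14.1% of all genes in the table. The E2F site, as TTTCGCG or TTCCCGC on either strand, was held by 11 of 59 (18.6%) against 6.15% of all and 11.7% of tested genes, and 10 of those 11 were Cep genes. CCAAT on either strand was held by 52.5% of the 59 and 41.1% of all genes in the table. A match is a description of the letters in this window.

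The genes with an X-box changed in both directions. Ahi1 and Ift57 rose with poly(I:C) while Mks1, Tctn3, Bbs7 and Cep19 fell, and Cep41 passed the test with neither ligand. With CL075, Ift57 rose, Mks1, Tctn3, Tctn1 and Cep19 fell, and Ahi1 and Bbs7 were not called. The rises of Ahi1 and Ift57 with poly(I:C) changed sign when libraries were scaled by their total counts. The fall of Cep19 with poly(I:C) was just past 1.5-fold. The GTTGCC arm was held by 16 of 28 genes that fell with CL075 (57.1%), by 6 of 24 that were not called and by 1 of 5 that rose. With poly(I:C) it was held by 14 of 28 genes that fell, 6 of 21 not called and 3 of 8 that rose. The other motifs did not share this pattern. Of genes that fell with CL075 and genes not called, E2F was held by 14.3% and 29.2%, the X-box by 14.3% and 12.5% and CCAAT by 57.1% and 50%. A link between a motif and the calls was not tested. None of the 4 motifs was found before the start of Rpgrip1l, which rose with poly(I:C), or of Cep83, which rose with CL075. The 250 bases before these starts, at chr8:91313223-91313472 (minus strand) and chr10:94688540-94688789 (plus strand), are shown because these genes had some of the largest changes.
Rpgrip1l: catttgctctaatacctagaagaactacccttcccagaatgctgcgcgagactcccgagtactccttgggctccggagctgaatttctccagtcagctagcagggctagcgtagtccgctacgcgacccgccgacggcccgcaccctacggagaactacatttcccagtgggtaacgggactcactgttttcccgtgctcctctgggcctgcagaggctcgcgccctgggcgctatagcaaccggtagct
Cep83: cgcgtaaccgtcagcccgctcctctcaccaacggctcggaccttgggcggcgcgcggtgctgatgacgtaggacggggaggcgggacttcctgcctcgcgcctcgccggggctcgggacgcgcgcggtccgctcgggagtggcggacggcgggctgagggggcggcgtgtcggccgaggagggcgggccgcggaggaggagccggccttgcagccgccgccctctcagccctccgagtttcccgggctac

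In control cells the genes were expressed at low to moderate levels. Their median level was 9.41 TPM, a unit that accounts for gene length and has the same sum in each library, against 17.4 TPM over all genes tested. The range ran from Cep112 (0.745 ± 0.0929 TPM, mean ± SD, n = 5) to Ift52, a core subunit of IFT-B (55.8 ± 1.38 TPM). By role the highest were Ift52 in IFT-B, Ift43 in IFT-A (14.7 ± 1.05 TPM), Bbs4 in the BBSome (13.4 ± 0.989 TPM), Tctn3 in the transition zone (19.3 ± 1.52 TPM), Cep83 among distal appendage and ciliogenesis genes (43.5 ± 1.67 TPM), Cep120 among centriole assembly genes (29.6 ± 0.463 TPM) and Cep350 among genes of the centriole linker, subdistal appendages and satellites (34.1 ± 2.08 TPM). Ift43 and the 2 other IFT-A subunits, which act in 1 complex, stood at 14.7 ± 1.05, 12.9 ± 1.09 (Ift140) and 6.55 ± 0.503 TPM (Ift122). The 6 BBSome subunits listed here ranged from Bbs1 (1.37 ± 0.0853 TPM) to Bbs4. The other 3 genes had too few reads for a test. Cep126 had 4 counts in the control libraries together, 3 with poly(I:C) and 1 with CL075, Cep295nl had 59, 38 and 23, and Cep83os, a noncoding transcript beside Cep83, had 0 in all 15 libraries.

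**Figure D1:**
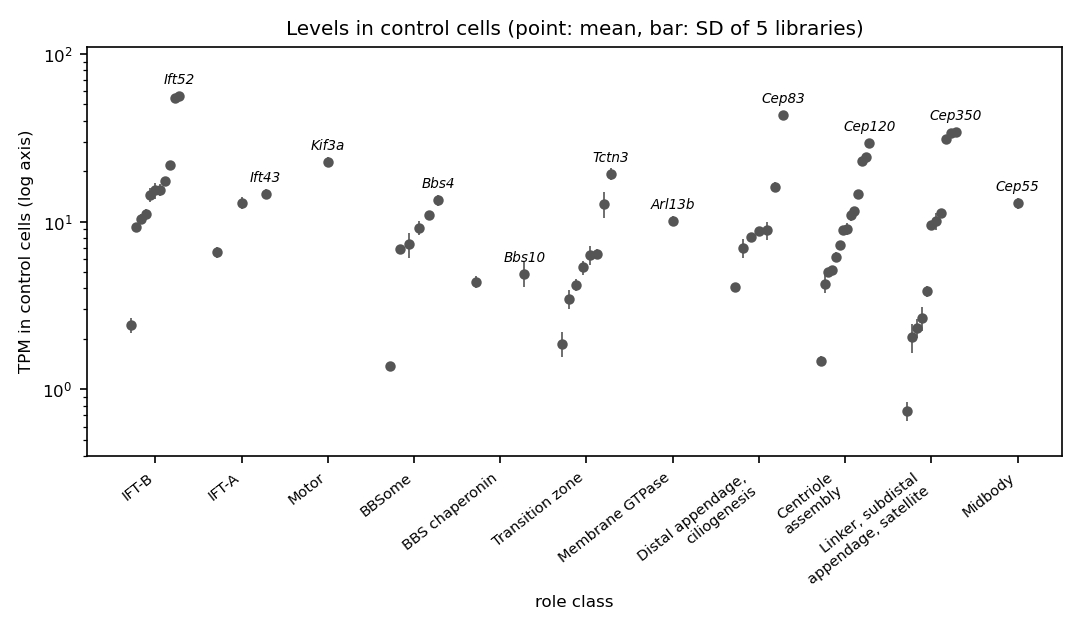
Level of 65 of the 66 tested genes in control cells, by role class (x axis), as TPM on a log axis (y axis); points are means and bars the SD of 5 libraries, and the highest gene of each class is named. Ift52, at 55.8 TPM, was the highest and Cep112, at 0.745 TPM, the lowest.

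Both ligands lowered more of these genes than they raised. Calls needed an edgeR adjusted p under 0.05 (Benjamini-Hochberg, over all genes tested), a change of more than 1.5-fold and a mean above 0.5 TPM in 1 or both of the groups compared. Levels in single libraries are given as CPM (a gene's share of all counts in a library, per 1000000, with library sizes scaled by TMM), in the order of replicates 1 to 5, and changes as log2 fold changes with their standard errors (SE). With poly(I:C), 12 of the 66 genes were higher (18.2%) and 30 lower (45.5%), against 25.4% and 30.5% of all genes tested. With CL075, 5 were higher (7.58%) and 30 lower (45.5%), against 17.6% and 21.5% of all genes. The median log2 fold change over the 66 genes was -0.35 with poly(I:C) and -0.49 with CL075, against -0.08 and -0.02 over all genes tested. The values of the poly(I:C) and control libraries did not overlap for 50 of the 66 genes (75.8%), close to the 75.9% of all genes, and those of the CL075 and control libraries did not overlap for 52 (78.8%), against 65.3% of all genes. Both comparisons use the same control libraries. Of the 66 genes, 20 were lower with both ligands, 3 higher with both (Ift22, Ift57 and Cep85l) and 13 called with neither. The shares of all genes tested with such joint calls are not given here, so these counts do not show whether the 66 genes differ from them. Bbs1, a BBSome subunit, was the only gene called in opposite directions.

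The direction of the modest changes depended on how the libraries were scaled. The TMM factors used here ran from 1.33 to 1.38 in control libraries, from 1.03 to 1.09 with CL075 and from 0.683 to 0.721 with poly(I:C). Scaling by library totals instead moved the median of all genes with poly(I:C) from -0.08 to -1.02 on the log2 scale, and with it the calls among the 66 genes from 12 higher and 30 lower to 4 higher and 53 lower. Scaling by Hprt, a housekeeping gene, gave a median of -0.63 over all genes with 7 of the 66 higher and 43 lower, and upper-quartile factors gave -0.41 with 8 higher and 35 lower. With CL075, library totals gave 2 higher and 47 lower. The same settings moved the share of all genes called lower with poly(I:C) to 64.9% (library totals), 50.2% (Hprt) and 41.4% (upper quartile), and higher to 13.1%, 17.2% and 19.8%. On all 5 scales poly(I:C) raised Tmem67, Rpgrip1l, Cep85l and Cep170, and CL075 raised Cep83 and Ift57. Of the genes called lower, 29 of 30 with poly(I:C) (all but Cep19) and 28 of 30 with CL075 (all but Bbs10 and Ift88) were lower on all 5 scales. Upper-quartile factors, Hprt and library totals moved the median of all genes down with both ligands, which favours lower calls and removes higher ones. The number of calls kept therefore does not show that the falls were firmer than the rises. With TMM, the summed level of the 69 genes was 1139 to 1211 CPM in control and 1147 to 1258 CPM in CL075 libraries. It was higher with poly(I:C), at 1708 to 1861 CPM. As a share of all counts, which is the scale of library totals, the 69 genes took 0.157 to 0.162% in control libraries. That share was lower in CL075 libraries (0.118 to 0.136%) and with poly(I:C) (0.123 to 0.128%). Within that share Cep170, Cep350, Tmem67 and Cep83 together took 25.8 ± 1.2% in control cells, 49.4 ± 1.49% with poly(I:C) and 45.3 ± 0.969% for CL075 (SD, n = 5), values not tested because the 4 genes were chosen after their changes were seen.

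**Figure D2:**
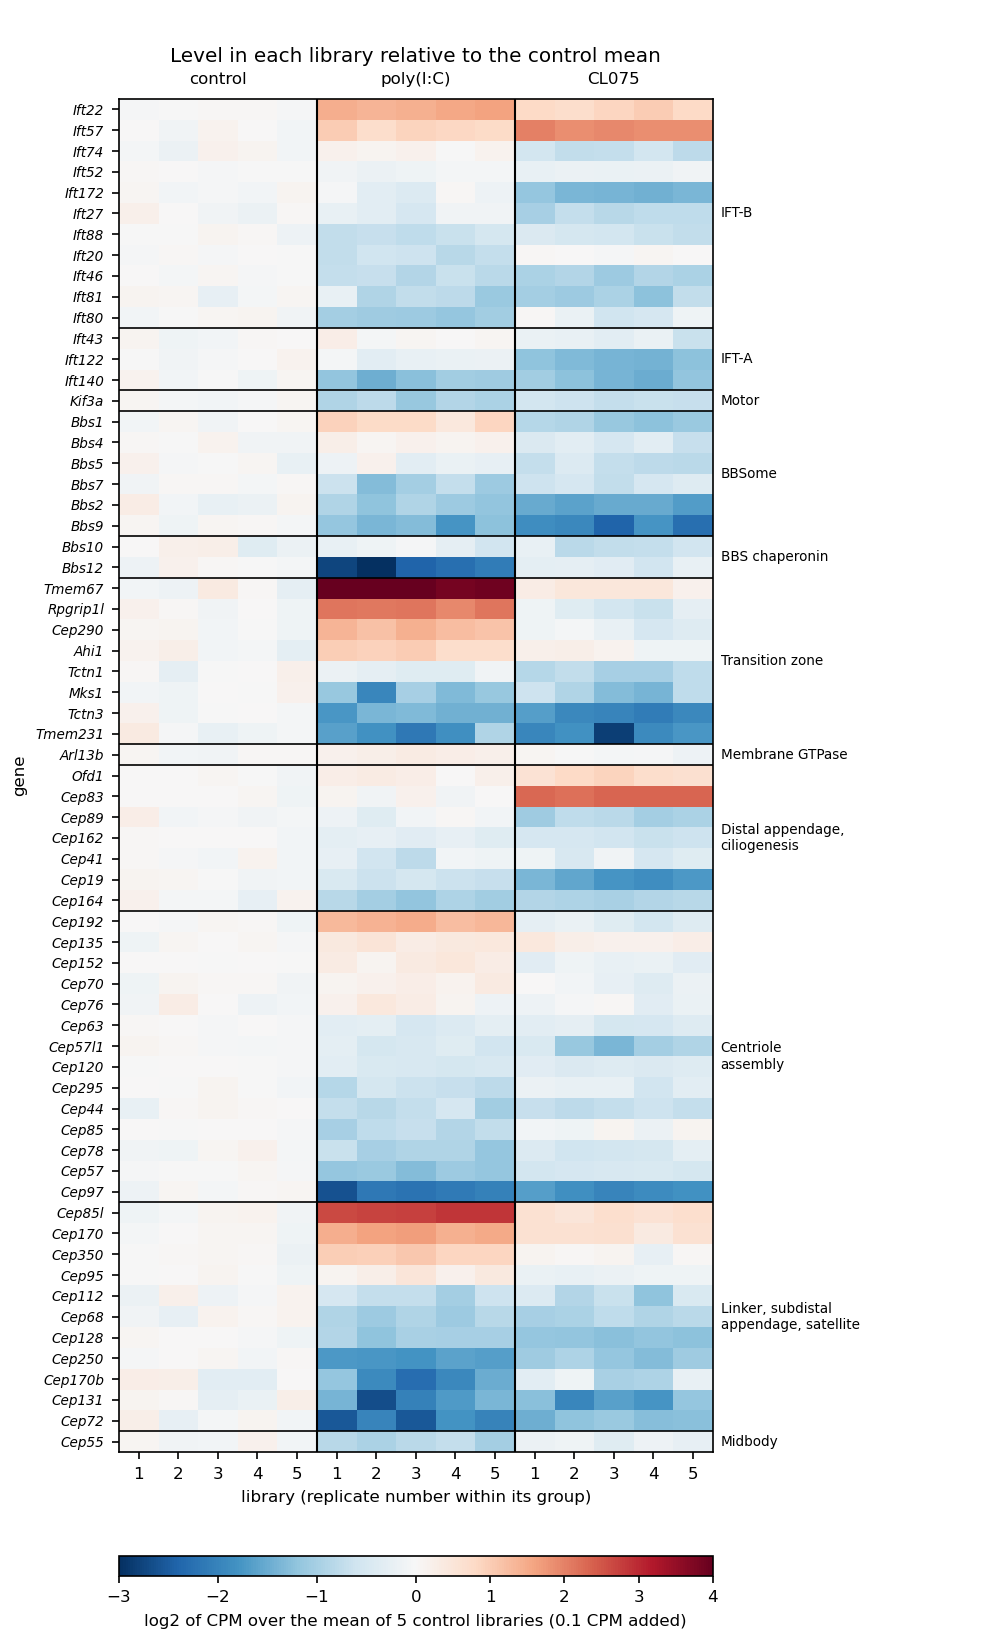
Level of 65 of the 66 genes in each library, as log2 of CPM over the mean of the 5 control libraries with 0.1 CPM added (colour), with genes in rows by role class and the 15 libraries in columns by group. The 5 libraries of a group resemble each other, and Tmem67 with poly(I:C) and Cep83 with CL075 stand out from their neighbours.

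**Figure D3:**
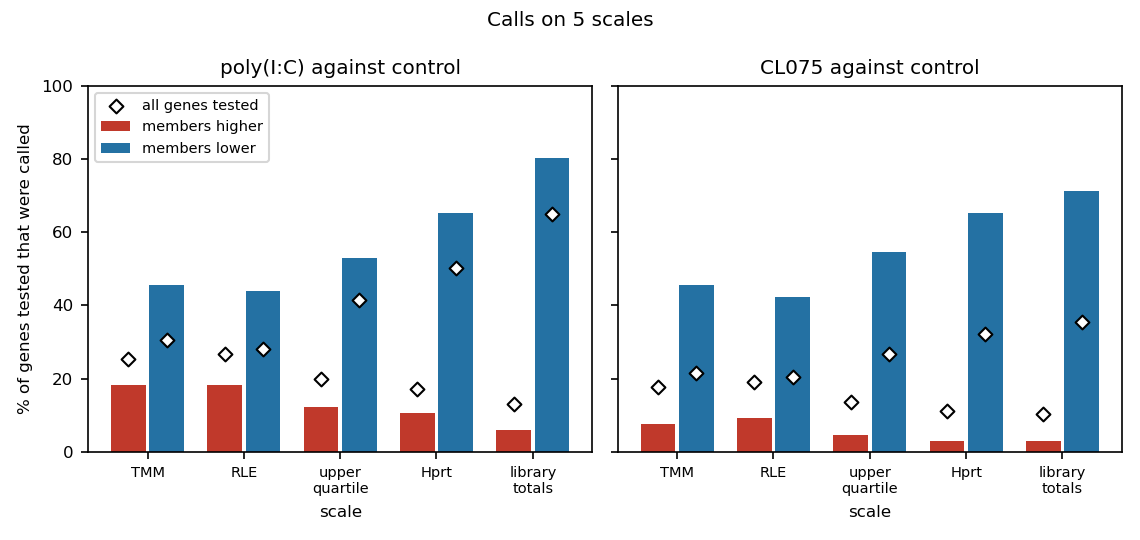
Share of genes called higher and lower (y axis, percent of genes tested) on 5 scales of the libraries (x axis), for poly(I:C) and CL075 against control; bars are the 66 genes, labelled members, and diamonds all 11804 genes tested. More of the 66 genes were lower than higher on each scale, from 12 against 30 with TMM to 4 against 53 with library totals for poly(I:C).

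The transition zone genes divided most widely with poly(I:C), with 4 of 8 higher and 3 lower, and a range of log2 fold changes from -1.73 to 3.98. Counts of a class are to be read against the shares of all genes tested that were called higher and lower, 25.4% and 30.5% with poly(I:C) and 17.6% and 21.5% with CL075. Tmem67, a membrane protein of the gate that is mutated in human Meckel syndrome, showed the largest change among the 66 genes. In GRCm38 it lies at chr4:12039355-12090020, minus strand, and it stood at 16.3, 15.5, 22.3, 18 and 14.3 CPM in the control libraries, 282, 291, 284, 247 and 258 CPM with poly(I:C) and 21.1, 23.8, 23.8, 23.6 and 19.3 CPM with CL075. Each poly(I:C) library was far above all others, and the mean was 15.8-fold that of control (log2 change 3.98, SE 0.10, edgeR adjusted p = 4.64e-17). The CL075 libraries overlapped the control libraries and the change was not called (0.37). On the opposite strand, Rbm12b2 covers 3.73% of the exon bases of Tmem67 and Gm11842 covers 1.69%, and whether the counting used strand is not stated in the sources at hand. Rbm12b2 had 4431 counts in the control libraries and 4343 with poly(I:C) (log2 change 0.87, called higher), while Tmem67 had 3220 and 27275.

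Rpgrip1l (chr8:91217030-91313262, minus strand), a scaffold protein at the base of the gate, stood at 10.7, 9.82, 8.83, 9.69 and 8.64 CPM in the control libraries, 42, 41.3, 42.1, 36.4 and 42.8 CPM with poly(I:C) and 8.76, 7.44, 6.44, 5.98 and 7.82 CPM with CL075. All poly(I:C) libraries lay above all control libraries, and the fold was 4.3 (log2 change 2.10, SE 0.08, edgeR adjusted p = 2.15e-14), whereas with CL075 the groups overlapped and the gene was not called (-0.39). Cep290, which links the microtubules of the gate to the membrane, rose from 17.4 ± 1.3 to 42.1 ± 3.34 CPM with poly(I:C) (mean ± SD, n = 5; log2 change 1.27, SE 0.08, edgeR adjusted p = 1.57e-11) and was at 14.6 ± 1.77 CPM with CL075. Ahi1, the mouse homologue of a gene mutated in Joubert syndrome, rose from 5.77 ± 0.817 to 10.6 ± 1.16 CPM (log2 change 0.88, SE 0.11, edgeR adjusted p = 4.07e-07), but its sign turned on library totals (-0.06) and it was not called with Hprt as the scale (0.32). Cep290 kept its sign on library totals but not its call (0.34). On the other strand, 4930430F08Rik covers 7.58% of the exon bases of Cep290. It had 976 counts in the control libraries and 300 with poly(I:C), while Cep290 had 3253 and 4219.

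Other gate genes fell with both ligands. Tctn3, a tectonic that joins the membrane part of the gate, had the highest TPM of the 8 in control cells and was at 20.7, 17, 18.5, 18.9 and 17.8 CPM in the control libraries, 5.47, 7.17, 7.4, 6.73 and 6.75 CPM with poly(I:C) and 5.83, 4.8, 4.66, 4.29 and 4.8 CPM with CL075. Every library of either ligand was under every control library, with a change of -1.47 for poly(I:C) (SE 0.08, edgeR adjusted p = 7.19e-12) and -1.93 for CL075 (SE 0.08, edgeR adjusted p = 3.49e-13). Tmem231, a membrane protein of the same complex, was scarce, at 2.29, 1.75, 1.52, 1.63 and 1.72 CPM in the control libraries, 0.507, 0.438, 0.329, 0.424 and 0.908 CPM with poly(I:C) and 0.383, 0.43, 0.165, 0.404 and 0.457 CPM with CL075. It fell by 1.73 on the log2 scale after poly(I:C) (edgeR adjusted p = 2.27e-06) and by 2.26 with CL075 (edgeR adjusted p = 8.64e-08), with no overlap between either group and control. Mks1, a cytosolic B9-domain protein of the gate, fell from 4.14 ± 0.359 CPM to 1.65 ± 0.401 for poly(I:C) and 2.06 ± 0.49 for CL075 (-1.32 and -1.01). Tctn1 was lower with CL075 (log2 change -0.87, SE 0.09, edgeR adjusted p = 3.5e-08; poly(I:C) -0.25), and this gene is uncertain because Hvcn1 covers 19% of its exon bases on the other strand and Gm15481 covers 6.5%. Hvcn1 rose by 1.35 on the log2 scale with CL075, from 3055 to 6004 counts, while Tctn1 went from 2131 to 906. The test of the 2 ligands against each other gave a higher level of Tctn1 for poly(I:C) (log2 change 0.62, SE 0.09, edgeR adjusted p = 5.84e-06), a call lost without CL075 replicate 4 or poly(I:C) replicate 1 or 5 (0.57 to 0.58).

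Markers of motile ciliated cells, taken as a list of 12 genes of which 3 had enough reads to test, did not move together with poly(I:C). Their summed level was 1.91 to 2.81 CPM in control libraries, 12.4 to 13.9 with poly(I:C) and 0.463 to 1.19 with CL075. With poly(I:C) most of the sum was Ccdc39, a regulator of the axoneme's dynein arms, at 1.01 ± 0.23 CPM in control, 11.9 ± 0.814 with poly(I:C) and 0.343 ± 0.15 with CL075. Dnah5, a heavy chain of the outer dynein arm, had 20, 12, 15, 14 and 25 reads in the poly(I:C) libraries and 0 in each of the 10 others. Ccdc40 went the other way, from 0.527 ± 0.193 CPM in control to 0.181 ± 0.124 with poly(I:C) (log2 change -1.53, not called). Among genes not tested, Dnaic1 had 7, 8, 17, 6 and 18 reads in the control libraries and 3, 1, 4, 3 and 1 with poly(I:C). Tekt2 had 7, 2, 16, 9 and 4 in control and 1, 0, 2, 1 and 2 with poly(I:C). The defining markers Dnah9 and Tekt1 had no read in any of the 15 libraries. Foxj1, the master regulator of motile cilia, was at no more than 0.0507 CPM in any library.

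Among the 14 IFT subunits, 2 rose and 6 fell with poly(I:C), and 2 rose and 8 fell with CL075. Ift52, the highest in TPM, was called with neither ligand. It stood at 42.4, 41.4, 40.1, 40.9 and 40.7 CPM in the control libraries, 38, 36.3, 37.4, 39.8 and 39.3 CPM with poly(I:C) and 35.3, 36.2, 35.5, 36.4 and 38.3 CPM with CL075, and its changes of -0.11 and -0.18 were under the 1.5-fold threshold although the libraries of each ligand lay under those of control. Ift22 and Ift57 rose with both ligands and in opposite order of size. Ift22, a small GTPase-like subunit, stood at 21.9, 22.3, 23.1, 23 and 22 CPM in the control libraries, 61.1, 57.9, 59.8, 65.5 and 68.3 CPM with poly(I:C) and 38.8, 36.7, 40.6, 45.8 and 39.1 CPM with CL075. It rose 2.78-fold with poly(I:C) (log2 change 1.48, SE 0.06, edgeR adjusted p = 2.73e-14) and 1.79-fold with CL075 (log2 change 0.84, SE 0.06, edgeR adjusted p = 2.96e-10), and the 3 groups did not overlap. Its rise with poly(I:C) fell below 1.5-fold on library totals (0.54).

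Ift57, which sits on the periphery of IFT-B and was also described as a partner of huntingtin-interacting protein, stood at 9.86, 9.18, 10.9, 9.98 and 9.2 CPM in the control libraries, 19.9, 16, 18.4, 17.6 and 16.6 CPM with poly(I:C) and 40.0, 35.6, 37.4, 36 and 35.6 CPM with CL075. The rise was larger with CL075 (3.76-fold; log2 change 1.91, SE 0.06, edgeR adjusted p = 6.68e-15) than with poly(I:C) (1.8-fold; log2 change 0.85, SE 0.07, edgeR adjusted p = 6.59e-10; sign turned on library totals, -0.09), and the ligands differed (log2 change -1.06, SE 0.06, edgeR adjusted p = 1.36e-11). The 3 groups of libraries were separate. An antisense gene, Gm15518, covers 7.86% of the exon bases of Ift57.

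The large peripheral subunit Ift172 went the other way with CL075. It stood at 27.6, 24.5, 25.6, 24.4 and 28.1 CPM in the control libraries, 25.5, 21, 19.6, 27.2 and 23.4 CPM with poly(I:C) and 11.5, 10.1, 9.81, 9.46 and 9.96 CPM with CL075. CL075 lowered it 2.57-fold (log2 change -1.36, SE 0.08, edgeR adjusted p = 3.37e-11) with no overlap, whereas poly(I:C) libraries overlapped the control libraries (-0.16), and the difference between ligands passed the test (log2 change 1.20, SE 0.08, edgeR adjusted p = 1.82e-10). In the IFT-A complex, Ift122 showed the same contrast, at 9.52, 9.0, 9.37, 9.69 and 10.7 CPM in the control libraries, 9.27, 7.78, 8.22, 8.33 and 8.56 CPM with poly(I:C) and 4.13, 3.8, 3.63, 3.56 and 4.03 CPM with CL075 (-1.33 with CL075, edgeR adjusted p = 5.4e-12; -0.19 with poly(I:C)). Ift140, its partner in IFT-A, was lower with both ligands, at 24.3, 21.1, 22, 20.4 and 23.3 CPM in the control libraries, 9.78, 7.94, 9.27, 10.7 and 10.6 CPM with poly(I:C) and 10.7, 9.43, 8.35, 7.89 and 9.79 CPM with CL075 (-1.19 with poly(I:C), edgeR adjusted p = 2.66e-10; -1.27 with CL075, edgeR adjusted p = 1.5e-10). Neither ligand gave a call for Ift43, the third IFT-A subunit, which stood at 4.21, 3.58, 3.71, 4.06 and 3.95 CPM in the control libraries, 4.71, 3.72, 4.17, 3.96 and 4.11 CPM with poly(I:C) and 3.4, 3.31, 3.1, 3.38 and 2.43 CPM with CL075. In all, 1 of the 3 IFT-A genes fell with poly(I:C) and 2 with CL075.

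Ift80, a subunit of IFT-B mutated in a human skeletal ciliopathy, fell with poly(I:C). It stood at 11.7, 12.2, 13.1, 13.2 and 11.5 CPM in the control libraries, 6.08, 5.86, 5.76, 5.51 and 5.97 CPM with poly(I:C) and 12.7, 10.8, 8.09, 8.73 and 11.4 CPM with CL075 (log2 change -1.08, SE 0.11, edgeR adjusted p = 1.69e-08), and with CL075 the groups overlapped (-0.26). The other IFT-B subunits lower with poly(I:C) had log2 fold changes of Ift20 -0.71, Ift46 -0.75, Ift81 -0.76 and Ift88 -0.68. Ift20, which also resides at the Golgi, was not called with CL075 (0.03) and differed between the ligands (log2 change -0.73, SE 0.05, edgeR adjusted p = 2.12e-10). Those lower with CL075 were Ift27 -0.83, Ift46 -0.95, Ift74 -0.67, Ift81 -1.04 and Ift88 -0.59, of which Ift88 was not called without control replicate 3 or 4 or CL075 replicate 4 or 5 (-0.58 to -0.54). Ift74 and Ift81, which together bind tubulin cargo, were both lower with CL075, and Ift74 was not called with poly(I:C) (0.12). Kif3a, a motor subunit of kinesin-II, fell with both ligands. It stood at 25.8, 23.4, 22.9, 23.8 and 25.7 CPM in the control libraries, 12.9, 14.1, 11.1, 13.2 and 12.5 CPM with poly(I:C) and 16.6, 15.9, 14.7, 15.3 and 15 CPM with CL075 (-0.93, edgeR adjusted p = 5.63e-11, and -0.65, edgeR adjusted p = 9.49e-09), with all libraries of either ligand under all control libraries.

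Poly(I:C) lowered 3 of the 6 BBSome subunits and raised 1, and CL075 lowered 4 and raised 0. Bbs9 had the largest fall of the 6. It stood at 8.11, 7.11, 8.12, 7.98 and 7.41 CPM in the control libraries, 3.39, 2.96, 3.07, 2.21 and 3.24 CPM with poly(I:C) and 2.04, 1.95, 1.39, 2.2 and 1.54 CPM with CL075, under every control library in both treated groups (-1.38, edgeR adjusted p = 2.37e-09, for poly(I:C); -2.10, edgeR adjusted p = 1.47e-11, for CL075). Bbs1, the subunit that binds Arl6 on the membrane, moved in opposite directions. It lies at chr19:4886898-4906627, minus strand, and it stood at 2.26, 2.52, 2.19, 2.43 and 2.51 CPM in the control libraries, 4.61, 4.16, 4.17, 3.25 and 4.45 CPM with poly(I:C) and 1.28, 1.22, 1.02, 0.954 and 1.06 CPM with CL075. The groups were separate in the order CL075, control, poly(I:C), with a rise of 0.79 (SE 0.11, edgeR adjusted p = 1.96e-06) and a fall of 1.11 on the log2 scale (SE 0.12, edgeR adjusted p = 1.67e-07). The rise was lost with Hprt as the scale (0.24), with upper-quartile factors (0.47) and library totals (-0.15), while the difference between the ligands was called on all 5 scales (1.90 with TMM and 1.31 with library totals).

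Bbs4, the subunit with the highest TPM, stood at 10.9, 10.5, 11.6, 9.78 and 9.8 CPM in the control libraries, 12.5, 11.1, 11.8, 11.3 and 11.9 CPM with poly(I:C) and 7.79, 8.44, 7.43, 8.47 and 6.51 CPM with CL075 and was called against control with neither ligand (0.16 and -0.45). Bbs2 fell with both ligands (-1.08 and -1.61), Bbs7 with poly(I:C) (-0.94) and Bbs5 with CL075 (-0.69), and the other value of each of the last pair was -0.55 (Bbs7 with CL075) and -0.14 (Bbs5 with poly(I:C)). Of the chaperonin-like proteins, Bbs12 had the largest fall of the 66 genes with poly(I:C). It stood at 2.95, 3.74, 3.39, 3.29 and 3.18 CPM in the control libraries, 0.405, 0.329, 0.548, 0.612 and 0.692 CPM with poly(I:C) and 2.68, 2.75, 2.61, 2.2 and 2.83 CPM with CL075, and the fall was 6.26-fold with poly(I:C) (log2 change -2.65, SE 0.16, edgeR adjusted p = 1.26e-11) and not called with CL075 (-0.34). The ligands differed (log2 change -2.31, SE 0.16, edgeR adjusted p = 2.3e-10). Cetn4, which lies opposite 1.31% of the exon bases of Bbs12, fell too, from 433 counts in the control libraries to 66 in the poly(I:C) and 100 in the CL075 libraries. Bbs10 was at 4.24, 4.8, 4.87, 3.23 and 3.67 CPM in the control libraries, 3.55, 3.78, 4.06, 3.44 and 2.77 CPM with poly(I:C) and 3.57, 2.32, 2.48, 2.49 and 2.77 CPM with CL075. Its change with CL075 (-0.62, edgeR adjusted p = 0.000535) was called although the libraries overlapped, and it fell just under 1.5-fold without control replicate 2 or 3 or CL075 replicate 2 or 4 (-0.58 to -0.56).

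**Figure D4:**
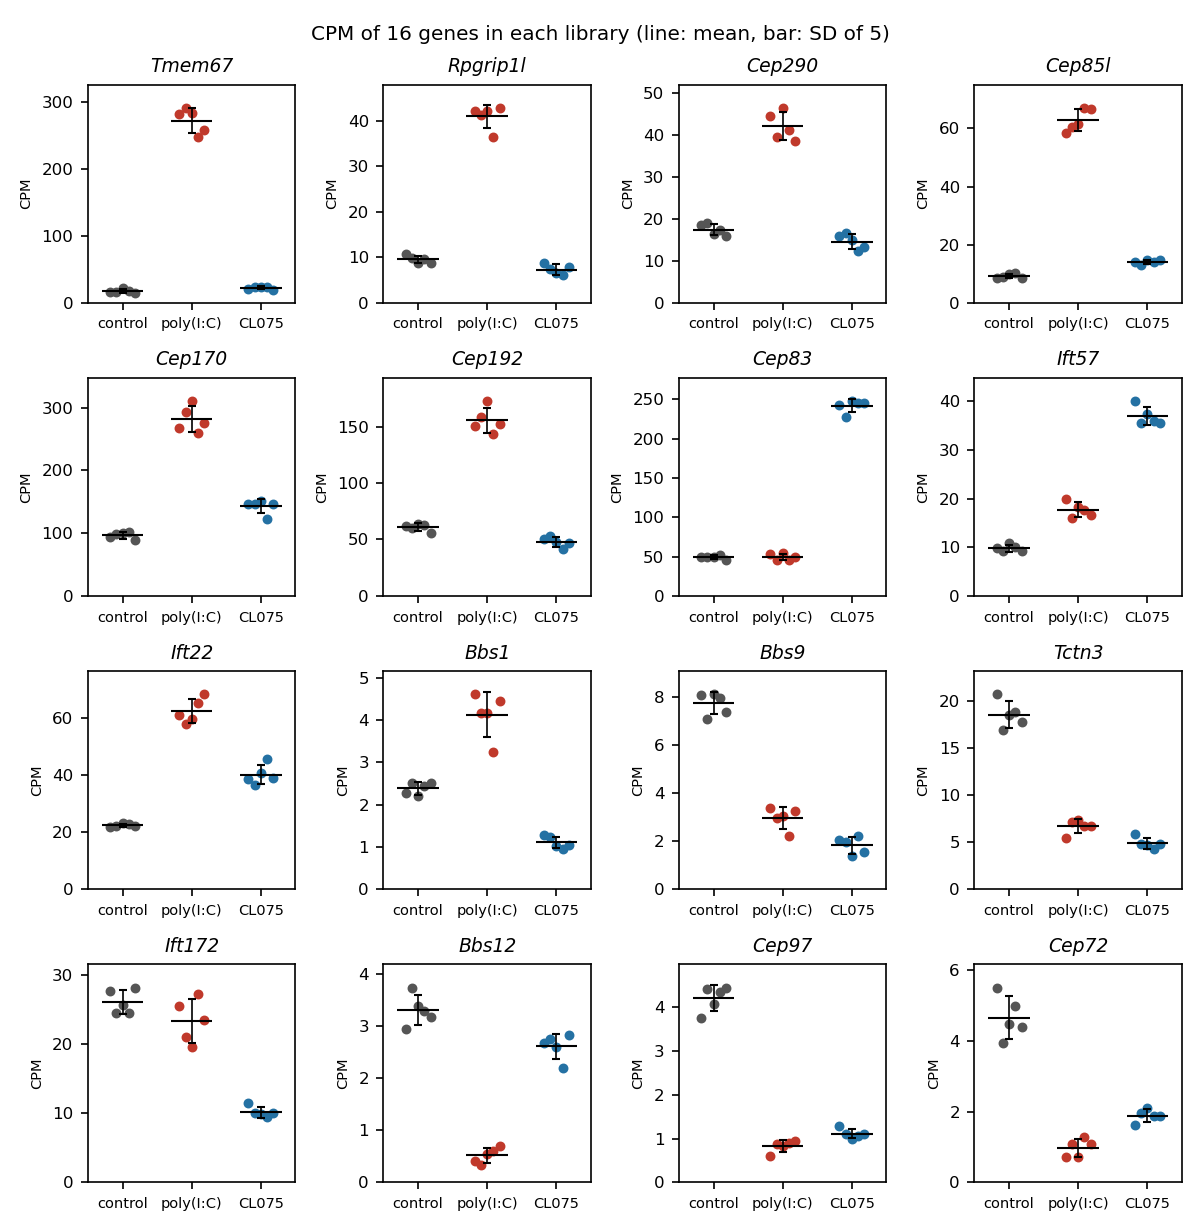
CPM (y axis, each panel on its own scale from 0) of 16 of the genes in the 5 control, 5 poly(I:C) and 5 CL075 libraries (x axis); points are libraries, lines means and bars the SD. The poly(I:C) libraries are the highest for Tmem67, Rpgrip1l, Cep290, Cep85l, Cep170 and Cep192, the CL075 libraries are the highest for Cep83 and Ift57, and Bbs1 has the control libraries in between.

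Cep83, which the distal appendages need to dock the centriole to the membrane, was the gene of the 66 raised most by CL075. It lies at chr10:94688654-94790853, plus strand, and it stood at 50.0, 49.8, 49.6, 51.5 and 45.1 CPM in the control libraries, 52.8, 45.8, 54.9, 45.8 and 49.3 CPM with poly(I:C) and 243, 227, 248, 245 and 245 CPM with CL075. The CL075 libraries lay 4.91-fold above control on average (log2 change 2.30, SE 0.05, edgeR adjusted p = 9.74e-17), and the poly(I:C) libraries overlapped the control libraries, with a change of 0.02 (SE 0.05). The difference between ligands was -2.28 (SE 0.06, edgeR adjusted p = 4.1e-17). The other appendage genes did not follow it. Cep164, which recruits the kinase Ttbk2 to the appendage, fell with both ligands, at 18.9, 15.9, 16.1, 14 and 18.5 CPM in the control libraries, 9.37, 8.16, 7.35, 8.71 and 8.04 CPM with poly(I:C) and 9.02, 8.8, 8.42, 9.02 and 9.28 CPM with CL075 (-1.0, edgeR adjusted p = 1.48e-09, and -0.91, edgeR adjusted p = 5.89e-09). Cep89, a further appendage protein, was lower with CL075 (log2 change -0.93, SE 0.09, edgeR adjusted p = 4.91e-08) and not called with poly(I:C) (-0.12).

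Cep19, a centriolar protein that helps to load IFT trains at the ciliary base, had a larger fall with CL075 than with poly(I:C). It stood at 9.49, 9.21, 8.64, 8.09 and 8.32 CPM in the control libraries, 6.33, 5.53, 6.03, 5.6 and 5.36 CPM with poly(I:C) and 3.32, 2.91, 2.51, 2.35 and 2.57 CPM with CL075. The fall with CL075 was -1.69 (SE 0.09, edgeR adjusted p = 5.06e-12), and the ligands differed (log2 change 1.08, SE 0.10, edgeR adjusted p = 6.03e-09). Its change with poly(I:C) was -0.60 (edgeR adjusted p = 2.56e-06), just past 1.5-fold, and was not called without control replicate 1 or 2 or poly(I:C) replicate 5 (-0.58 to -0.57) or with RLE factors (-0.54). Ofd1, a protein of the distal centriole and of the satellites, was higher with CL075 (log2 change 0.73, SE 0.07, edgeR adjusted p = 1.26e-08; 0.38 on library totals, not called) and at 0.23 with poly(I:C). Trappc2, which overlaps Ofd1 on the opposite strand over 2.94% of its exon bases, rose by 0.72 with CL075. Cep41 and Cep162 were called with neither ligand (-0.33 and -0.30 with poly(I:C); -0.32 and -0.58 with CL075). Arl13b, a small GTPase of the ciliary membrane and a usual marker of cilia, was at 11.8, 10.6, 10.3, 11.5 and 11.4 CPM in the control libraries, 12.5, 13, 14, 13.4 and 12.9 CPM with poly(I:C) and 11.8, 11, 10.6, 10.8 and 9.96 CPM with CL075, a difference of less than 1.5-fold in either comparison (0.24 and -0.04).

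Of the 14 genes of centriole duplication and elongation, 1 rose and 6 fell with poly(I:C) (42.9% lower, against 30.5% of all genes), and 3 fell with CL075 (21.4%, close to the 21.5% of all genes). Cep192, which gathers the material around the centriole and recruits the kinase Plk4, was the one that rose. It stood at 62.1, 59.8, 63.8, 63.2 and 56 CPM in the control libraries, 150.3, 159, 172, 143 and 152 CPM with poly(I:C) and 50.4, 53, 47.4, 41.3 and 46.7 CPM with CL075, and poly(I:C) raised it 2.55-fold (log2 change 1.35, SE 0.06, edgeR adjusted p = 3.23e-13; 0.41 on library totals, not called). The CL075 libraries were lower than control by less than 1.5-fold (-0.35), so that the ligands differed by 1.70 (edgeR adjusted p = 1.96e-14). Cep97, which with Ccp110 caps the centriole and holds back the growth of a cilium, fell with both. It stood at 3.75, 4.41, 4.06, 4.35 and 4.44 CPM in the control libraries, 0.608, 0.876, 0.822, 0.895 and 0.951 CPM with poly(I:C) and 1.28, 1.09, 0.991, 1.06 and 1.11 CPM with CL075, 5.02-fold lower with poly(I:C) (log2 change -2.33, SE 0.12, edgeR adjusted p = 2.04e-12) and 3.8-fold lower with CL075 (log2 change -1.93, SE 0.11, edgeR adjusted p = 1.61e-11), with both treated groups under the control libraries. The other genes lower with poly(I:C) were Cep57 -1.17, Cep78 -0.93, Cep85 -0.81, Cep44 -0.77 and Cep295 -0.70. With CL075 the others lower were Cep44 -0.72 and Cep57l1 -0.99. Cep57 and Cep57l1, paralogs needed for centriole engagement, were called in different comparisons, and reads that fit both could be split between them by the authors' counting.

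Another 6 genes of this class were called with neither ligand. Cep152, the other recruiter of Plk4, was at 9.26 ± 0.101, 11.6 ± 0.965 and 7.78 ± 0.527 CPM in control, poly(I:C) and CL075 libraries, and Cep63, its partner, at 13.9 ± 0.405, 10.9 ± 0.725 and 10.6 ± 0.848 CPM. Log2 fold changes of these 6 genes were Cep63 -0.36, Cep70 0.21, Cep76 0.18, Cep120 -0.46, Cep135 0.41 and Cep152 0.32 with poly(I:C). They were Cep63 -0.40, Cep70 -0.17, Cep76 -0.13, Cep120 -0.40, Cep135 0.26 and Cep152 -0.25 with CL075. Cep295 is uncertain because genes on the other strand cover 19.1% of its exon bases, most of it Gm16568 (10.9%), Gm48141 (4.38%) and Gm48142 (3.36%). The remaining gene, Taf1d, covers 0.474% and was at -0.83 with poly(I:C).

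The class of linker, subdistal appendage, satellite and anchoring genes held large changes in both directions, where poly(I:C) raised 3 of 11 and lowered 7, and CL075 raised 1 and lowered 6. Cep85l, a pericentriolar protein with a role in neuronal migration, stood at 8.43, 8.89, 9.91, 10.1 and 8.59 CPM in the control libraries, 58.4, 60.7, 61.6, 67.1 and 66.7 CPM with poly(I:C) and 14, 12.9, 14.8, 13.9 and 14.7 CPM with CL075. Poly(I:C) raised it 6.85-fold (log2 change 2.78, SE 0.06, edgeR adjusted p = 9.42e-18), and CL075 1.53-fold (log2 change 0.61, SE 0.06, edgeR adjusted p = 8.22e-08), a call that was lost without control replicate 1 (0.58). Its groups did not overlap, and 7.26% of its exon bases lie opposite Pln and Gm47641, which had 29 and 0 counts in the poly(I:C) libraries. Cep170, a subdistal appendage protein, stood at 93.3, 98.5, 101, 102 and 88.5 CPM in the control libraries, 267, 293, 311, 259 and 276 CPM with poly(I:C) and 146, 146, 151, 123 and 147 CPM with CL075, with a 2.91-fold rise (log2 change 1.54, SE 0.06, edgeR adjusted p = 3.82e-14) and a value with CL075 just under 1.5-fold (log2 change 0.56, SE 0.06, edgeR adjusted p = 1.59e-07) that was called without CL075 replicate 4 (0.62). Its paralog Cep170b went the other way with poly(I:C), from 4.41 ± 0.855 to 1.29 ± 0.434 CPM (log2 change -1.76, SE 0.22, edgeR adjusted p = 7.16e-07). Cep350, a large protein that anchors microtubules at the centrosome, rose from 142 ± 10.1 to 276 ± 16.5 CPM with poly(I:C) (log2 change 0.95, SE 0.07, edgeR adjusted p = 1.97e-10; 0.02 on library totals) and was at 145 ± 14.4 CPM with CL075.

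The satellite genes Cep72 and Cep131 fell with both ligands. Cep72, which binds the satellites that Pcm1 forms, stood at 5.5, 3.93, 4.47, 4.97 and 4.39 CPM in the control libraries, 0.709, 1.1, 0.713, 1.27 and 1.08 CPM with poly(I:C) and 1.62, 1.95, 2.11, 1.87 and 1.88 CPM with CL075, a fall of 4.72-fold with poly(I:C) (log2 change -2.24, SE 0.15, edgeR adjusted p = 7.28e-11) and of 2.45-fold with CL075 (log2 change -1.29, SE 0.13, edgeR adjusted p = 3.17e-08). Cep131, a further satellite protein, stood at 3.24, 3.05, 2.46, 2.57 and 3.53 CPM in the control libraries, 1.06, 0.383, 0.658, 0.848 and 1.08 CPM with poly(I:C) and 1.19, 0.695, 0.892, 0.807 and 1.28 CPM with CL075 (-1.85, edgeR adjusted p = 1.95e-07, and -1.61, edgeR adjusted p = 5.4e-07). For both genes every treated library was under every control library. The linker that joins the centrioles followed, with Cep250 at -1.71 and -1.11 and Cep68 at -0.97 and -0.89 for poly(I:C) and CL075. On the other strand, 6430550D23Rik covers 11.1% of the exon bases of Cep250, with 135 counts in the control libraries against 16098 for Cep250. The subdistal appendage protein Cep128 was at -1.01 and -1.21 and Cep112 at -0.80 and -0.78, and Cep95 was called with neither (0.29 and -0.17).

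Cep55, which acts at the midbody at the end of cell division rather than at the cilium, stood at 11.8, 10.3, 10.5, 12.4 and 10.6 CPM in the control libraries, 6.18, 5.7, 6.3, 6.78 and 5.45 CPM with poly(I:C) and 9.78, 10.1, 8.59, 10.0 and 9.34 CPM with CL075. It fell with poly(I:C) (log2 change -0.87, SE 0.08, edgeR adjusted p = 5.18e-09) and less with CL075 (-0.22, not called), and the ligands differed (log2 change -0.65, SE 0.08, edgeR adjusted p = 5.01e-07). Of a list of 30 S phase and mitosis genes, 21 were lower with poly(I:C) (70%, against 30.5% of all genes tested) and 3 higher (10%, against 25.4%). Their median log2 fold change was -1.06, against -0.08 over all genes. With CL075, 9 were lower (30%, against 21.5% of all genes), 0 higher and 21 not called (median -0.39, against -0.02). Cenpf, a kinetochore protein, was at -2.66 for poly(I:C) and -0.92 for CL075, Mcm7, of the replicative helicase, was at -1.55 and -1.26, and Pcna (2.08) and Mcm6 (1.83) were higher with poly(I:C). In these bulk libraries fewer dividing cells and less RNA per cell cannot be told apart, and the part of cell division in the values of the centriole genes was not tested.

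**Figure D5:**
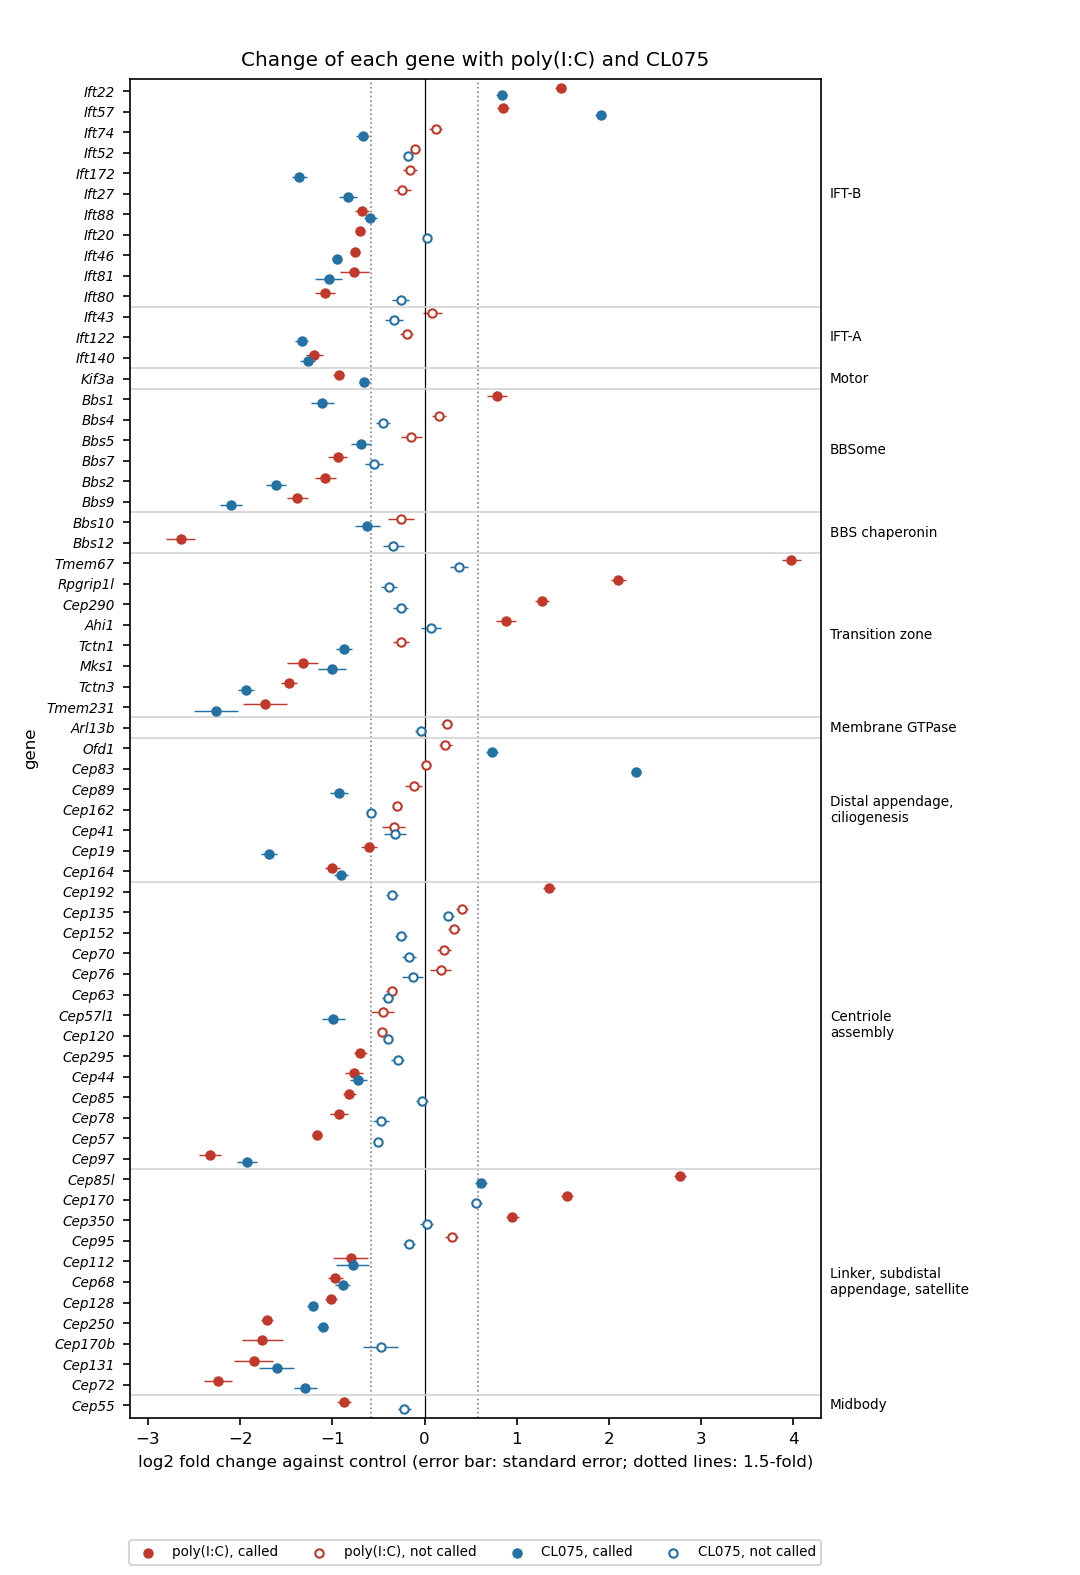
Log2 fold change of 65 of the 66 genes (y axis, by role class) with poly(I:C) and with CL075 against control (x axis), with standard errors as bars and dotted lines at 1.5-fold; filled points were called and open points were not. Values run from -2.65 (Bbs12) to 3.98 (Tmem67), both with poly(I:C).

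The test of poly(I:C) against CL075 uses no control library for its difference, and it called 19 of the 66 genes higher and 11 lower with poly(I:C), against 22.7% and 23.7% of all genes tested. The median log2 difference over the 66 genes was 0.28, against -0.01 over all genes. Of the 8 transition zone genes, 5 were on the side of poly(I:C) and 0 on that of CL075, led by Tmem67 (3.61), Rpgrip1l (2.49) and Cep290 (1.53). IFT genes higher with poly(I:C) were Ift172 1.20, Ift122 1.14, Ift74 0.79, Ift22 0.64 and Ift27 0.59, and those lower were Ift57 -1.06, Ift80 -0.82 and Ift20 -0.73. In the BBSome, Bbs1 (1.90), Bbs9 (0.72) and Bbs4 (0.60) were higher with poly(I:C), and of the Cep genes the largest differences were Cep85l (2.16) and Cep192 (1.70) on the side of poly(I:C) and Cep83 (-2.28) and Cep170b (-1.28) on that of CL075. Of the 19 genes higher, 7 were called on all 5 scales (Tmem67, Rpgrip1l, Cep85l, Bbs1, Cep192, Cep290 and Ift172), as were 10 of the 11 lower, all but Cep250. Upper-quartile factors (-0.18), Hprt (-0.27) and library totals (-0.60) moved the median of all genes down from -0.01. Lower calls were thus easier to keep than higher ones, and these counts do not compare the support of the 2 sides. Cep250 was not called without CL075 replicate 2 (-0.56), Bbs4 not without CL075 replicate 5 or poly(I:C) replicate 1 or 3 (0.54 to 0.58), and Ift27 not without any of 6 libraries (0.54 to 0.58).

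Further genes of the same pathways were taken from lists rather than from the symbol rule. Of 84 tested, poly(I:C) raised 13 and lowered 26, and its share lower (31%) was close to the 30.5% of all genes tested. CL075 raised 2 and lowered 31 (36.9% lower, against 21.5% of all genes). The IFT and dynein-2 list had 14 of 17 genes lower and 0 higher with CL075 (median -0.99), and 7 lower and 1 higher with poly(I:C) (median -0.34). Dync2li1, the light intermediate chain of dynein-2, was at -2.12 with CL075 and -1.34 with poly(I:C), and Wdr19, an IFT-A subunit, at -1.38 and -0.62. Ttc26, an IFT-B subunit, was called in opposite directions as Bbs1 was, at 1.21 for poly(I:C) and -1.32 for CL075. Kif3b, the partner of Kif3a in kinesin-II, was called with neither (0.46 and 0.44).

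The list of other BBSome and trafficking genes had 14 members, of which poly(I:C) raised 4 and lowered 2, and CL075 raised 2 and lowered 1. Tulp3, which brings receptors into the cilium with IFT-A, rose from 7.02 ± 0.674 to 51.5 ± 2.78 CPM with poly(I:C) (log2 change 2.88, SE 0.08, edgeR adjusted p = 7.04e-17) and was at 7.96 ± 0.909 CPM with CL075. Lztfl1, which restrains BBSome entry, rose with CL075 (log2 change 0.94, SE 0.06, edgeR adjusted p = 6.07e-11). The other transition zone and nephronophthisis genes numbered 18, of which poly(I:C) raised 3 and lowered 7, and CL075 raised 0 and lowered 8, with Anks6 (-2.61 and -2.82) and Nphp4 (-2.82 and -1.45) lower with both. Of 35 other centriole and pericentriolar genes, poly(I:C) raised 5 and lowered 10 (28.6%), and CL075 lowered 8 (22.9%), shares lower that are close to those of all genes tested (30.5% and 21.5%). Among them Cenpj, which adds tubulin to the growing centriole, rose with poly(I:C) (log2 change 2.91, SE 0.08, edgeR adjusted p = 2.1e-16), as did Cntrl (1.32), while Cntrob fell (-2.73), and Pcm1, the core of the satellites, was at 0.07 and 0.07.

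Of 10 ciliary transcription factors, 6 had enough reads to test, and Rfx4 and Gmnc had none in any library. Rfx5, which is better known for MHC class II genes, rose with poly(I:C) (log2 change 1.95, SE 0.06, edgeR adjusted p = 2.6e-16), and Rfx7 (-1.32) and Rfx1 (-0.59) fell. With CL075, Rfx3, a regulator of ciliary genes, fell (log2 change -0.97, SE 0.14, edgeR adjusted p = 5.29e-06) and Myb rose (1.36). Rfx2 had the lowest values of the list (-2.48 with poly(I:C) and -1.86 with CL075) but few reads, and was called with neither. It had 15, 14, 11, 24 and 12 reads in the control libraries. Reads numbered 0, 3, 1, 2 and 1 with poly(I:C) and 3, 1, 5, 4 and 3 with CL075. Of 11 genes of the Hedgehog pathway, whose signalling runs through the cilium, 3 could be tested (Kif7, Ptch1 and Sufu). Kif7 fell with both ligands (-1.03 and -2.22) and Ptch1 with CL075 (-1.07).

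Total counts ran from 21816291 to 32487565 per library, with medians of 27734342 in control, 27682039 with poly(I:C) and 28969546 with CL075. All 8 genes of a ligand response list, among them Cxcl10 and Il6, rose with both ligands. The macrophage markers were abundant, with Lyz2 at 25059 ± 1296 CPM and Csf1r at 2964 ± 75.3 CPM in control libraries, and poly(I:C) raised 6 of 9, whereas CL075 raised 4 and lowered 1. Summed markers of other cells were low, and some of the sums moved with the groups. In control, poly(I:C) and CL075 libraries, dendritic cell markers summed to 1.96 to 2.72, 16.1 to 21.3 and 1.96 to 2.84 CPM, T and NK cell markers to 1.03 to 1.72, 10.1 to 14.8 and 0.628 to 1.43 CPM and neutrophil markers to 21.9 to 97.8, 42.3 to 193 and 112 to 232 CPM. Fibroblast markers summed to 0.803 to 1.83, 0.657 to 1.64 and 3.01 to 4.13 CPM, B cell markers to 11.6 to 13.5, 3.45 to 4.52 and 2.83 to 3.85 CPM, mast cell and basophil markers to 0.433 to 1.3, 2.08 to 3.72 and 0.714 to 1.28 CPM and erythroid markers to 0.086 to 0.345, 0.253 to 40.0 and 0.143 to 29.2 CPM. The sum of the T and NK list with poly(I:C) was mostly Lck (0.154 CPM in control and 11.9 with poly(I:C)), while Cd2 was lower (-1.40) and Trac had no read in any library. In the dendritic cell list Clec9a went from 0.167 to 12.1 CPM with poly(I:C). Neutrophil and fibroblast sums overlapped between control and poly(I:C) libraries. The erythroid reads lay in single libraries, with 334 counts of Hba-a2 in poly(I:C) replicate 3, 440 and 406 in CL075 replicates 2 and 3, and no more than 3 in any other. The part of these cells in the values above was not tested.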

How the data were processed

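Stranded mRNA libraries of BMDMs were sequenced from one end on a NextSeq500. Per the methods of the study, the authors trimmed the reads at a Phred score of 20 and a length of 25, aligned them to GRCm38.p6 in CLC Genomics Workbench, using the gene models of Ensembl, and kept reads with up to 5 matches. Neither its version nor its use of strand in counting is given in the sources used here. Deposited tables hold whole-number read counts per gene, which are not normalized, and TPM, which the authors scaled to 1 sum per library. Columns of the authors' fold changes and p-values and 20 columns of RPKM were not used.

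Counts of all 15 libraries were fitted together with edgeR 4.0.16 in R 4.3.3 (filterByExpr, 11804 genes, TMM, quasi-likelihood test, Benjamini-Hochberg). A standard error is the size of the log2 fold change over the root of its F. The deposited TPM gave the floor of 0.5 and the levels between genes. The script was tested on simulated data. Members were found by symbol, and 63 of 69 had the coordinates of GENCODE M21. Genes given by library are the one with the highest mean TPM over the 15 libraries in each role class, the largest called folds by class and ligand, those called in opposite directions and those over 4-fold. Tctn3 was added after its values were seen. Alternatives were other scales (RLE, upper quartile, library totals, Hprt), no filter, DESeq2 1.42.0, fits of 2 groups, the replicate number as a block, no TPM floor and leaving out each library. The members, the role classes, the other gene lists and the marker lists were chosen with earlier results of these data known. Of the 66 tested members, 1 enters the counts and is not reported here by name. Genes on the opposite strand or near-identical copies can share reads with a member. Figures were made with Python 3.11.15 and matplotlib 3.10.9.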

Additional observations from a re-analysis of the deposited data

Results flagged for a closer look

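In 10 of the 198 groups of 5 libraries (66 genes in 3 groups), 1 library stood apart from the 4 others, by a gap of more than 0.71 of the range of the group, where chance alone would give about 1 in 20, or 9.9 groups. Cep170 and Cep350 both stood low in CL075 replicate 4, at 123 CPM against 146 to 151 and at 120 CPM against 146 to 155. Cep83 was at 227 CPM in CL075 replicate 2 against 243 to 248, and Rpgrip1l at 36.4 CPM in poly(I:C) replicate 4 against 41.3 to 42.8, both still far above all control libraries. Tmem231 was at 0.165 CPM in CL075 replicate 3 against 0.383 to 0.457, and Ift172 at 11.5 CPM in CL075 replicate 1 against 9.46 to 10.1. Bbs5 was at 3.24 CPM in CL075 replicate 2 against 2.43 to 2.6, and Cep57 at 9.1 CPM in poly(I:C) replicate 3 against 10.1 to 10.5. In control replicate 1, Cep44 was at 5.13 CPM against 6.16 to 6.47 and Cep89 at 9.37 CPM against 7.2 to 7.61. Of these 10 genes, Cep170 and Bbs5 gained a call where the library that stood apart was left out. Cep170 was then at 0.62 on the log2 scale with CL075, and Bbs5 at 0.63 in the test between the ligands. No cause was tested.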

How the results depend on the processing

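The scale of the libraries was the choice that moved the results, and the members of the symbol rule and of the other lists moved with the median of all genes. Among the 66 genes, library totals gave 4 higher and 53 lower for poly(I:C), 2 and 47 for CL075, and 7 and 24 for poly(I:C) against CL075. Hprt as the scale gave 7, 2 and 11 higher in these 3 comparisons, and upper-quartile factors gave 3 higher with CL075. In the other cilium and centrosome lists, calls with poly(I:C) were 6 higher and 41 lower (upper quartile), 4 and 65 (library totals) and 6 and 52 (Hprt), against 13 and 26 with TMM. With CL075 each of these 3 scales gave 1 higher against 2 with TMM, and library totals gave 49 lower against 31. Of the S phase and mitosis genes, 14 (upper quartile), 21 (library totals) and 20 (Hprt) were lower with CL075 against 9 with TMM. Of the 65 genes given by name, 14 changed sign on library totals with poly(I:C), of which 13 were called on 1 or both of the scales, at -0.055 for Ahi1, -0.70 for Arl13b, -0.15 for Bbs1, -0.78 for Bbs4, -0.62 for Cep152, -0.72 for Cep70, -0.76 for Cep76, -0.92 for Cep83, -0.64 for Cep95, -0.85 for Ift43, -0.085 for Ift57, -0.82 for Ift74 and -0.71 for Ofd1. The remaining one, Cep135 (-0.53), was called on neither, as were the 4 genes that changed sign with CL075 and the 20 between the ligands. These shifts follow from the construction of the scales, since each moves the values of all genes in a library by 1 factor.

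Leaving out 1 library at a time gave 11 to 12 of the 66 genes higher and 29 to 30 lower for poly(I:C), 4 to 6 and 28 to 32 for CL075, and 16 to 21 and 10 to 11 for poly(I:C) against CL075. The other lists ranged from 12 to 13 higher and 26 to 30 lower for poly(I:C) and from 29 to 33 lower with CL075, where 2 were higher each time, and S phase and mitosis genes lower with CL075 from 7 to 10. Beyond the calls named in the report, leaving out 1 library brought Cep162 (-0.60 to -0.59) and Bbs7 (-0.59) past the threshold with CL075, and Cep152 (0.60 to 0.61) and Cep57l1 (0.67) in the test between the ligands. DESeq2 and RLE factors in edgeR each left 189 of the 195 results by gene on the same side of the threshold, no filter on low counts left 193 and a fit of the groups compared 194. No result called in the main fit or in the other setting changed sign, and changes of sign among uncalled results were not counted.

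With the replicate number as a block, the counts among the 66 genes were the same as without it (12 and 30 with poly(I:C), 5 and 30 with CL075, 19 and 11 between the ligands), and the replicate block changed none of the 195 calls. Over all genes the block gave 3011 higher and 3616 lower for poly(I:C). Libraries with the same number deviated together in 14 of 15 pairs at a correlation over 0.1 (median 0.224, lowest -0.004), against a median of -0.047 for other pairs, and for 13 of 15 libraries the mean correlation with the libraries of a number was highest for their own number. The library names share a number after WT across the groups but do not say what it marks, and 1 pair did not correlate, so the numbers were not taken as pairs. Genes under about 1 CPM in a group, such as Tmem231 and Bbs12, rest on few reads per library, which limits the precision of their folds.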
